A study of Mus musculus with 7 samples.

Results

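The 7 genes described here belong to the MHC class II pathway: Cd74, H2-Aa, H2-Ab1, H2-Eb1, H2-DMa, H2-DMb1 and Ciita. They were taken by name from a table of 30879 genes and were followed through the cell classes of the mouse thyroid and of thyroid follicular cell organoids (TFCOs). All samples came from adult female wild-type mice of the strain C57BL/6. They comprised 2 samples of primary thyroid tissue, 3 of TFCOs in late passage and 2 of TFCOs in early passage, without further treatment, and no exact age is given in the sources used here. TFCOs were grown in basement membrane extract from thyroid cells of the gland, in an expansion medium with R-spondin 3, EGF, FGF10, forskolin and the ALK inhibitor A83-01, and the tissue had passed a step of red blood cell lysis before culture.

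MHC class II molecules are pairs of an alpha and a beta chain that present peptides taken up from outside the cell to CD4+ T cells. H2-Aa and H2-Ab1 encode the chains of the I-A molecule and H2-Eb1 encodes the beta chain of I-E, whose alpha chain gene is defective in C57BL/6 mice. Cd74 encodes the invariant chain, which occupies the groove of new molecules until proteases degrade it. H2-DMa and H2-DMb1 form H2-M, which exchanges the last piece of the invariant chain for peptides. Ciita encodes the coactivator that turns the group on at promoters bound by the RFX complex and NF-Y. The genes are high in dendritic cells, macrophages and B cells as a rule, and interferon gamma induces them in many other cells, thyrocytes of inflamed glands included.

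Cells had been sorted alive, each into its own well of a 384-well plate. Molecules were counted by unique molecular identifiers (UMIs) at the 3′ end of the transcript. Levels are therefore given as UMIs per 10000 UMIs of the cell, without a correction for length. What part of the transcripts of each gene is counted was not tested, so an order of genes below is an order of UMIs. A minimum of 1000 UMIs left 2035 of 2590 cells, with medians of 3368 to 3608 UMIs in the tissue samples and 5011 to 12380.5 in the TFCO samples. Clusters were formed without the class II genes and named from fixed markers, so the genes described did not build the classes they are compared across. Tissue gave 57 immune-like cells, 33 in tissue sample 1 and 24 in tissue sample 2, and 171 endothelial-like (87 and 84), 57 mural-like, 23 stromal-like, 17 erythroid-led and 103 thyroid follicular cell (TFC)-like cells (47 and 56). TFCOs gave 1395 TFC-like cells, 215 to 350 per sample. All 384 well barcodes occurred in more than 1 plate, as they do by design.

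In the GRCm38 annotation H2-DMa (chr17:34119541-34139101), H2-DMb1 (chr17:34153072-34160230), H2-Ab1 (chr17:34257689-34269419), H2-Aa (chr17:34282744-34287823, minus strand) and H2-Eb1 (chr17:34305867-34316674) lie in the same stretch of chromosome 17, and Ciita lies at chr16:10480059-10528418. Exons of H2-DMa, Ciita and H2-Eb1 overlap a gene on the opposite strand (Brd2, Dexi and the antisense transcript Gm20513, respectively), and whether counting used strand is not given in the sources used here. Of the 50-base words in the last 500 bases of the annotated H2-DMb1 transcripts, 27.4% also occurred in its neighbor H2-DMb2, so counts of this pair are uncertain, and the other 6 genes shared none with another gene.

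Promoters of 4 of the 7 genes were found in RefSeq (GRCm38.p6). They are shown because the chain genes moved together below, and because RFX binds the X box of class II promoters and NF-Y the Y box. The 150 bases before the start are given for the 3 genes in which the 250 bases before the start held TNGNAAC (part of the X box) followed on the same strand by TGATTGG (the Y box) within 40 bases. Capitals mark both. The letters were chosen after these sequences had been seen, and both strands were searched.
H2-Aa (chr17:34287824-34287973, minus strand): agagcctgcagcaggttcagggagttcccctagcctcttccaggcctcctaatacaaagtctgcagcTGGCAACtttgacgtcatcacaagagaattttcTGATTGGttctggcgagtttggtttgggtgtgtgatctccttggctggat
H2-Eb1 (chr17:34305717-34305866, plus strand): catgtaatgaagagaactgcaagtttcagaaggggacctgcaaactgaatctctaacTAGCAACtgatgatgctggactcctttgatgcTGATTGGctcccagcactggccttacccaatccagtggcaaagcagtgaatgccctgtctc
H2-DMb1 (chr17:34153041-34153190, plus strand): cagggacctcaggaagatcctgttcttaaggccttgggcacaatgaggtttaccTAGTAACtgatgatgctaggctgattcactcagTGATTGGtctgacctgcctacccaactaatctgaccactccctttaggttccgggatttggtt
The boxes were 26 bases apart in H2-Aa and H2-DMb1 and 25 in H2-Eb1. The pair of motifs occurred in 0.207% of all 32851 promoters (68), against 30.7% with the X box letters and 7.23% with the Y box letters on either strand. Neither of the 2 listed H2-DMa promoters held the pair. No promoter was found for Cd74, H2-Ab1 or Ciita. H2-DMb1 held the pair, but its levels in TFCO and tissue TFC-like cells overlapped, unlike those of H2-Aa and H2-Eb1. Whether the motifs have a part in any level below was not tested.

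Immune-like cells held nearly all class II UMIs of the gland. They made up 10.8% and 8.79% of the kept cells of tissue samples 1 and 2 and held 89.8% and 87.8% of the UMIs of the 7 genes. Cd74 was the most abundant, at 156 UMIs per 10000 in sample 1 and 173 in sample 2 (mean 165 ± 11.95, SD, n = 2). H2-Aa stood at 110 and 103, H2-Ab1 at 93.3 and 98.0 and H2-Eb1 at 83.9 and 80.2. H2-Aa (107 ± 5.02) stood above H2-Ab1 (95.6 ± 3.33) and H2-Ab1 above H2-Eb1 (82.1 ± 2.62) in both samples. The peptide exchange genes were far lower, H2-DMa at 3.23 and 3.41 and H2-DMb1 at 4.20 and 4.26 UMIs per 10000. Ciita, the coactivator, was at 2.97 and 1.45.

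Levels of the 4 abundant genes were far lower in every other tissue class. In endothelial-like cells Cd74 stood at 1.51 and 0.599 UMIs per 10000 in samples 1 and 2, H2-Aa at 3.37 and 1.74, H2-Ab1 at 1.24 and 1.47 and H2-Eb1 at 4.46 and 2.47. The order of the genes was therefore not that of immune-like cells, with Cd74 next to lowest of these 4 in sample 1 and lowest in sample 2, in place of highest. H2-DMa (0.142 and 0.140), H2-DMb1 (0.0917 and 0.249) and Ciita (0.0373 and 0.0645) rested on 7 UMIs or fewer per sample.

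Differences between tissue classes were tested with limma on log2(mean UMIs per 10000 + 1) per class and sample, with the tissue sample as a replicate block and p-values adjusted over 4595 genes. Of the 7 genes 6 reached the mean of 0.5 UMIs per 10000 over the classes that was required for testing, and Ciita did not. H2-DMa and H2-DMb1 reached it only through the immune-like level and thus had to differ, so the count over the genes is given without weight. All 6 were higher in immune-like than in endothelial-like cells, where 5.22% of all genes tested were called higher, 7.68% lower and 12.9% in either direction. On the log2 scale Cd74 was higher by 6.37 ± 0.34 (SE, adjusted p = 1.16e-07), H2-Ab1 by 5.36 ± 0.35 (adjusted p = 3.84e-07), H2-Aa by 4.96 ± 0.28 (adjusted p = 1.74e-07) and H2-Eb1 by 4.25 ± 0.33 (adjusted p = 1.25e-06). H2-DMb1 (2.16) and H2-DMa (1.92) differed by less on this scale, which understates changes of low genes. Immune-like cells also stood above TFC-like tissue cells for all 6, with 6.59% of all genes called higher there, 2.98% lower and 9.58% in either direction, by 4.66 ± 0.34 for Cd74 (adjusted p = 1.10e-06) and 3.77 ± 0.33 for H2-Eb1 (adjusted p = 5.46e-06). With the required mean lowered to 0.1, Ciita was tested as well, again only through its immune-like level, so that it had to differ, and its values were 1.57 (adjusted p = 0.000484) against endothelial-like and 1.60 (adjusted p = 0.000534) against TFC-like cells.

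**Figure D1:**
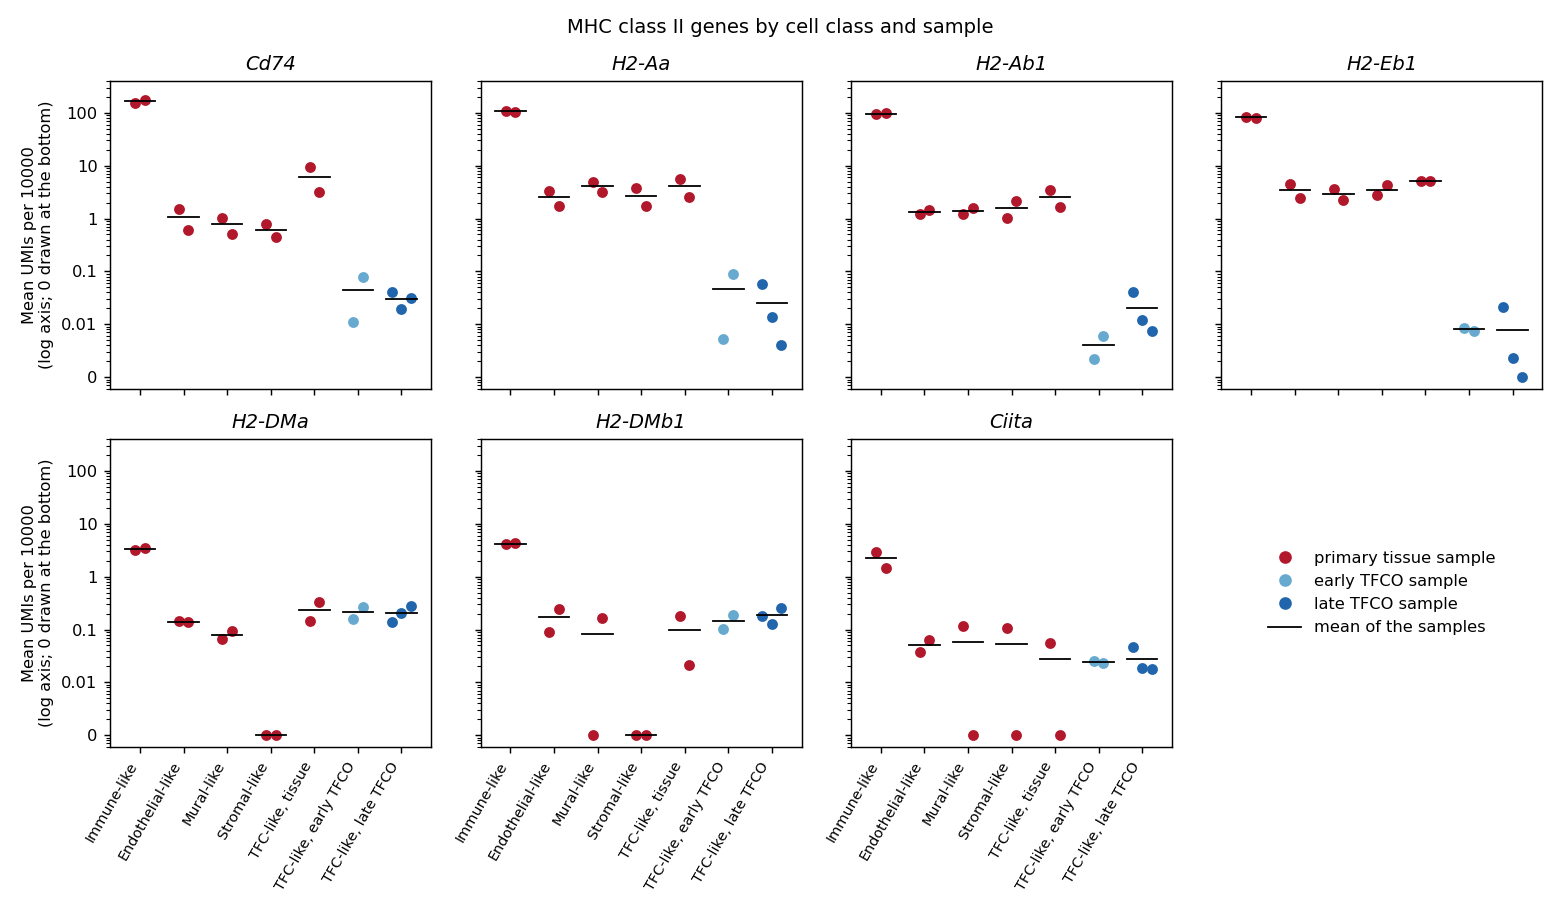
Mean UMIs per 10000 (log axis, values of 0 drawn at the bottom) of the 7 genes in each cell class, with a point per sample and a line at the mean of the samples. Erythroid-led cells are not drawn. Cd74 and the chain genes reach 80.2 to 173 in immune-like cells, lie between 0.456 and 9.33 in the other tissue classes drawn and below 0.1 in every TFCO sample, whereas H2-DMa, H2-DMb1 and Ciita lie in the same low range in tissue and TFCO TFC-like cells.

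The immune-like cells were not alike. Their cells fell into 45 with at least 18 Cd74 UMIs and 12 with 3 or fewer, with none between. The 45 held at least 137 UMIs of the 7 genes per 10000 and the 12 at most 20.6. Cells were then assigned to the list of subtype markers with the most UMIs, if at least 3, a rule that was chosen after the values had been seen. Cells led by macrophage markers (complement C1q genes, Adgre1, Csf1r and others) were the most common at 36, with a median of 138.5 Cd74 UMIs and a maximum of 423. In 35 of them Cd74 was present, and the remaining cell, with 39 macrophage marker UMIs among 7224, had no Cd74 UMI, 4 of H2-Aa and 2 of H2-Eb1. The 7 cells led by dendritic markers held 18 to 469 Cd74 UMIs and the 3 led by B cell markers held 45 to 81.

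Ciita was seen in every dendritic-led and B cell-led cell, with at least 2 UMIs each, but in 17 of the 36 macrophage-led cells. Its mean was 8.42 UMIs per 10000 in dendritic-led, 5.34 in B cell-led and 1.61 in macrophage-led cells. Cd74 had another order, with means of 220 UMIs per 10000 in macrophage-led, 160 in dendritic-led and 88.8 in B cell-led cells. H2-DMa and H2-DMb1 were highest in dendritic-led cells as well, at 7.36 and 8.40 UMIs per 10000 against 3.31 and 4.85 in macrophage-led cells. These are descriptions of few cells from 2 samples, without a test.

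Cells led by T or NK cell markers (6) lacked H2-DMa, H2-DMb1 and Ciita, and their Cd74 count was 0 in 4 cells and 1 in 2. The chain genes were not at 0 in them: H2-Aa had 3 UMIs in 4 cells, 1 in 1 cell and 0 in 1 cell, and H2-Eb1 had 1 to 3 UMIs in 4 of the 6. Both cells led by granulocyte or mast cell markers, with 101 and 108 UMIs of that list, held 0 and 3 Cd74 UMIs and 5 and 1 of H2-Aa. The 3 cells that no list led had no Cd74 UMI and 1 or 2 of H2-Eb1.

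**Figure D2:**
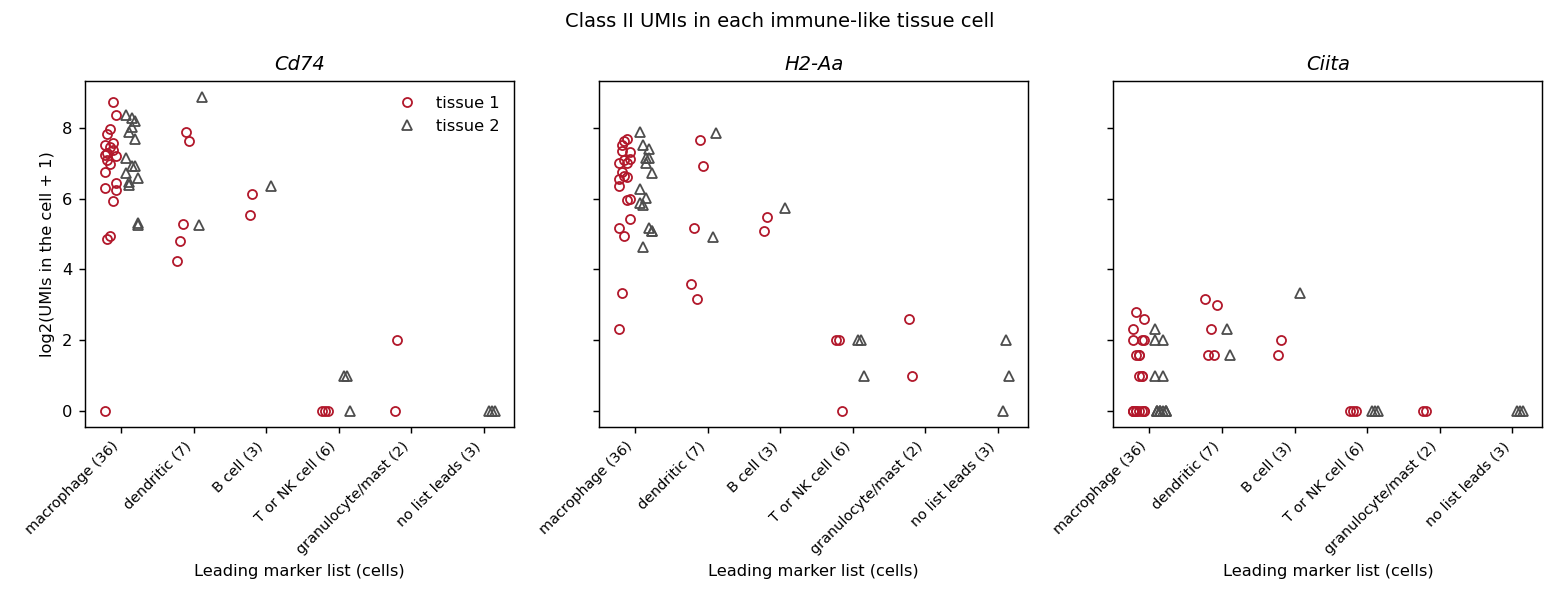
UMIs of Cd74, H2-Aa and Ciita in each of the 57 immune-like cells, on a log2(UMIs + 1) axis, by the marker list that leads the cell (number of cells in brackets), with circles for tissue sample 1 and triangles for tissue sample 2. Cd74 splits the cells into those with at least 18 UMIs and those with 3 or fewer, H2-Aa is at 0 to 5 UMIs in T or NK cell-led and granulocyte-led cells, and Ciita is present in all dendritic-led and B cell-led cells.

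Low counts of the chain genes were found in all tissue classes. Over endothelial-like, mural-like, stromal-like and erythroid-led cells of both samples, H2-Eb1 stood at 2.16 to 4.46 and H2-Aa at 1.71 to 4.90 UMIs per 10000, and 58.3% to 80% and 42.9% to 81.2% of the cells held a UMI of them. Erythroid-led cells held H2-Eb1 at 2.16 and 3.58 and H2-Aa at 3.33 and 2.33, from 26 and 10 UMIs of the 7 genes in all. They are no clean control, since 10 of the 17 cells held a UMI of the hemoglobin gene Hba-a1, and the endothelial gene Vwf was among the leading genes of the cluster. The endothelial-like values of H2-Aa and H2-Ab1 lay within the range of the mural-like, stromal-like and erythroid-led cells. Those of H2-Eb1 (4.46) and Cd74 (1.51) in sample 1 lay above the highest values of these classes (4.23 and 1.22), and those in sample 2 lay within, a description without a test. Wells of the tissue plates with under 1000 UMIs, which were left out above, held H2-Eb1 at 8.21 and 5.75, H2-Aa at 9.48 and 4.75, H2-Ab1 at 4.603 and 2.78 and Cd74 at 6.23 and 2.48.

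Tg, the precursor of thyroid hormone made by follicular cells, gives a measure of the same kind from another source. It was present in 100% of the immune-like, endothelial-like, mural-like, stromal-like and erythroid-led cells, at 13.3 to 29.0 UMIs per 10000, or 0.835% to 2.87% of its level in TFC-like cells of the same sample. As a share of the immune-like level of the same sample, endothelial-like cells held 0.965% and 0.346% of Cd74, 3.06% and 1.69% of H2-Aa, 1.33% and 1.498% of H2-Ab1 and 5.32% and 3.08% of H2-Eb1. Of the 11 immune markers fixed for naming, 8 in sample 1 and 9 in sample 2 were detected in endothelial-like cells. Srgn was as high there (12.1 in both samples) as in immune-like cells (12.4 and 8.67). The other 10 markers summed to 1.35 and 0.747 UMIs per 10000 in endothelial-like cells, against 64.5 and 76.3 in immune-like cells, with Coro1a and Cd3e at 0 in both samples. What part RNA from other cells has in these counts was not tested.

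The 7 genes were not found in the same proportion in every class. Of the UMIs of the 7 genes in immune-like cells, Cd74 took 34.6% (95% Clopper-Pearson interval 33.7 to 35.5) and 37.2% (36.2 to 38.3), and H2-Eb1 took 18.5% and 17.0%. In endothelial-like cells Cd74 took 13.9% (10.5 to 17.98) and 9.95% (6.34 to 14.7), and H2-Eb1 took 41.2% (36.0 to 46.5) and 39.4% (32.9 to 46.1). The intervals of both classes do not overlap in either sample, and they cover counting error only. Mural-like cells (8.65% and 5.33% Cd74) and wells with under 1000 UMIs (21.8% and 14.8%) also had less Cd74 than immune-like cells.

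**Figure D3:**
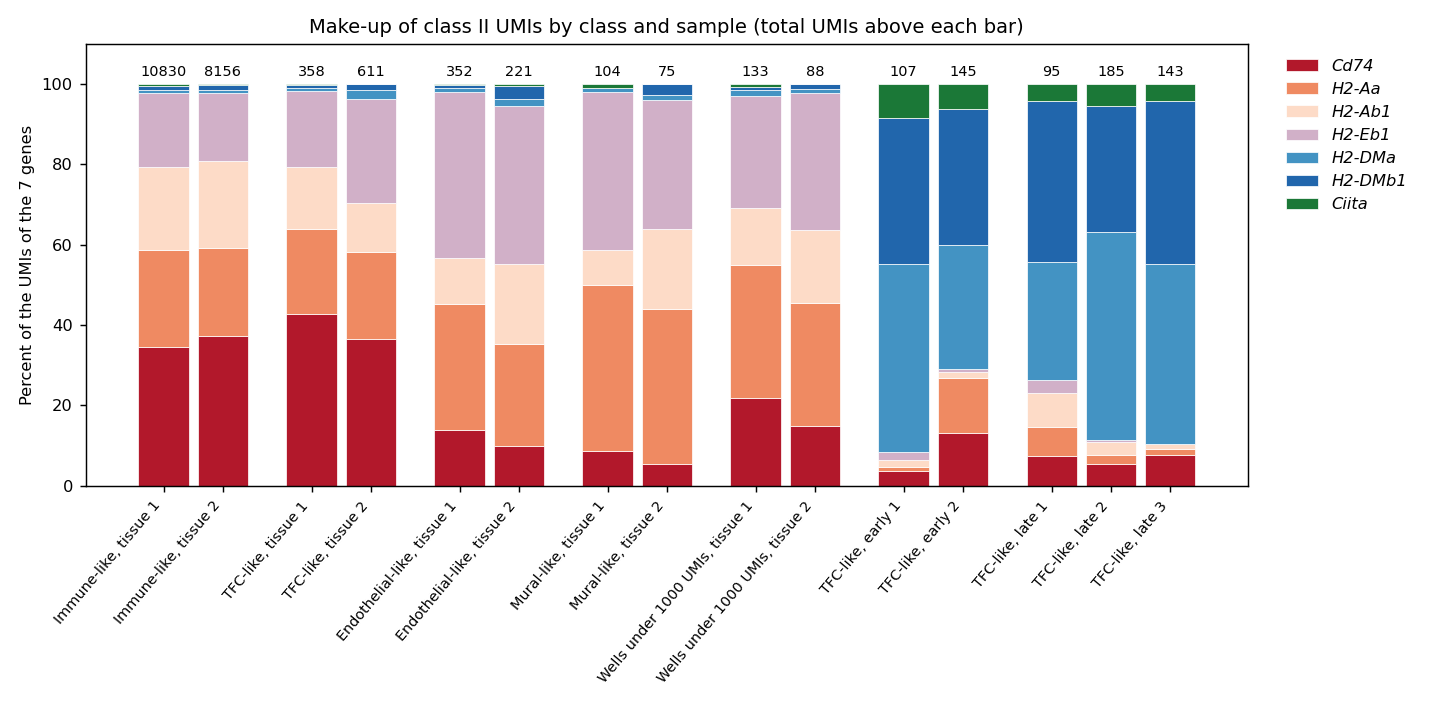
Percent of the UMIs of the 7 genes that each gene takes, by class and sample, with the total number of UMIs above each bar. Cd74 takes 34.6% and 37.2% in immune-like and 42.7% and 36.7% in TFC-like tissue cells (the last 24.4% without the 2 deepest wells), 5.33% to 21.8% in the other tissue bars, and H2-DMa with H2-DMb1 make up most of the few UMIs in TFCO cells.

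TFC-like cells of the gland stood above endothelial-like cells for Cd74. Their mean was 9.33 UMIs per 10000 in tissue sample 1 and 3.15 in sample 2, 6.19 and 5.26 times the endothelial-like level, and 70.2% and 41.1% of the cells held a UMI. TFC-like cells were the shallower class, with medians of 2288 and 1782.5 UMIs against 3693 and 4119, and the still shallower wells with under 1000 UMIs held Cd74 at 6.23 and 2.48 UMIs per 10000, also above the endothelial-like level. After thinning to 1000 UMIs, 47.9% and 25.5% of TFC-like and 13.5% and 5.58% of endothelial-like cells held a Cd74 UMI. What part depth and RNA from other cells have in this difference was not tested. By limma Cd74 was lower in endothelial-like cells by 1.71 on the log2 scale (SE 0.34, adjusted p = 0.00331), and it was called alone among the 6 genes tested, where 2.55% of all genes were called lower in endothelial-like cells, 9.45% higher and 12% in either direction. With every gene tested that had a UMI, its adjusted p was 0.0593. Within tissue sample 1 alone the difference was -2.04 and within sample 2 alone it was -1.38, which leaves no test. The chain genes leaned the same way without passing the test, with H2-Aa at 5.55 and 2.57 (difference -0.48, 95% interval -1.09 to 0.13), H2-Ab1 at 3.49 and 1.68 (-0.56, -1.31 to 0.18) and H2-Eb1 at 5.09 and 5.12 (-0.49, -1.20 to 0.22). H2-DMa (0.143 and 0.326), H2-DMb1 (0.176 and 0.0213) and Ciita (0.0554 and 0) rested on 16, 11 and 1 UMIs over both samples.

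Markers of immune cells were detected in these TFC-like cells as well. Leaving out Srgn, 6 and 8 of 10 immune markers were detected, summing to 1.30 and 1.37 UMIs per 10000 against 1.35 and 0.747 in endothelial-like cells, and Cd3e and Cd79a were at 0 in both samples. In the 36 and 43 TFC-like cells without a UMI of these markers Cd74 was at 6.23 and 3.31 UMIs per 10000, against 1.05 and 0.468 in the endothelial-like cells without one, and limma gave a difference of -1.48 (adjusted p = 0.00395 when TFC-like cells with such UMIs were left out). These TFC-like cells were shallow, with medians of 1973 and 1616 UMIs against 3285 and 3753 in those with a marker UMI and 3796.5 and 4044 in the endothelial-like cells without one, and what part this depth has in the split was not tested. A few cells were far above the rest. A cell of sample 1 held 51 Cd74 UMIs with 10 UMIs of immune markers and 284 of Tg, and 2 wells of sample 2 with 268847 and 151110 UMIs held 145 and 39 of the 224 Cd74 UMIs of that sample. The mean per cell gives such wells no more weight than others, whereas the shares of UMIs follow them. Of the UMIs of the 7 genes in TFC-like cells of sample 2, Cd74 took 36.7%. Without these 2 wells, an alternative chosen after seeing the data, it took 40 of 164, or 24.4% (95% Clopper-Pearson interval 18.03 to 31.7).

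Whether follicular cells of the organoids keep class II transcripts was asked by comparing TFC-like cells of the 5 TFCO samples with those of the 2 tissue samples. Cd74 and the chain genes were nearly absent from TFCOs. Cd74 stood at 0.0408, 0.0194 and 0.0315 UMIs per 10000 in late TFCO samples 1 to 3 and at 0.0109 and 0.0775 in early samples 1 and 2, against 9.33 and 3.15 in tissue. H2-Aa stood at 0.0568, 0.0135 and 0.00408 in late and 0.00523 and 0.0876 in early samples, and H2-Ab1 at 0.0404, 0.0120 and 0.00739 in late and 0.00222 and 0.00599 in early samples. H2-Eb1 was at 0.0212, 0.00234 and 0 in late and at 0.00867 and 0.00738 in early samples. No TFCO sample reached any tissue sample for any of these 4 genes.

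Over all 1395 TFC-like TFCO cells there were 51 Cd74, 34 H2-Aa, 20 H2-Ab1 and 7 H2-Eb1 UMIs, against 377, 207, 130 and 227 in 103 tissue cells. The mean level in tissue was 173 times the TFCO mean for Cd74 (6.24 ± 4.37, n = 2, against 0.0360 ± 0.0258, n = 5), 121 times for H2-Aa, 190 times for H2-Ab1 and 645 times for H2-Eb1. These ratios rest on few UMIs and moved with single samples, to 87.3 for Cd74, 76.9 for H2-Aa and 124 for H2-Ab1 without tissue sample 1, to 204 for H2-Aa without early sample 2, and to 375 for H2-Ab1 and 1110 for H2-Eb1 without late sample 1. In limma, with separate weights for tissue and TFCO samples and 4322 genes tested, the 4 genes that reached the required mean were all lower in TFCOs, where 6.69% of all genes tested were called lower and 29.8% in either direction. The differences on the log2(mean + 1) scale were -2.66 ± 0.25 for Cd74 (adjusted p = 7.70e-05), -2.60 ± 0.14 for H2-Eb1 (adjusted p = 1.27e-06), -2.22 ± 0.19 for H2-Aa (adjusted p = 7.53e-05) and -1.78 ± 0.17 for H2-Ab1 (adjusted p = 7.82e-05). The 4 genes reached the required mean through the tissue level and had to differ, so their calls and the count of 4 are given without weight. With a pseudocount of 0.1 in place of 1 the differences were -5.36 for Cd74, -5.59 for H2-Eb1, -4.89 for H2-Aa and -4.51 for H2-Ab1. Cd74 moved most with the tissue sample, to -3.32 when tissue sample 2 was left out and to -1.9998 when tissue sample 1 was. The median of all genes tested was shifted by 0.23 toward TFCOs. With each sample centred on its median gene the differences were -2.85 for Cd74 and -2.79 for H2-Eb1. The exact two-sided permutation test over the 7 samples gave p = 0.0476 for each of the 4, the smallest value that 21 splits allow, and 10.9% of all genes tested had lower levels in every TFCO sample than in both tissue samples, against 41.5% with higher levels in every TFCO sample.

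Shares of cells differed likewise. A Cd74 UMI was found in 70.2% and 41.1% of TFC-like tissue cells and in 1.86% to 3.04% of TFCO cells, and an H2-Eb1 UMI in 63.8% and 57.1% against 3 of 297, 1 of 350, 0 of 237, 2 of 215 and 1 of 296 TFCO cells. The 0 of 237 cells in late TFCO sample 3 allow a share of cells with a UMI of up to 1.27% (3 counts of the total). TFCO cells were deeper, with medians of 5272.5 to 12546.5 UMIs against 2288 and 1782.5. After each cell was thinned to 1000 UMIs the shares of cells with Cd74 were 47.9% and 25.5% in tissue and 0.109% to 0.709% in TFCOs (exact p = 0.0476). Erythroid-led cells of the tissue held an H2-Eb1 UMI in 58.3% and 80% of cells and a Cd74 UMI in 16.7% and 20%. The tissue plates held immune-like cells and no cluster of TFCO cells was named so, and therefore the origin of the cells and the presence of immune-like cells on the plate cannot be told apart here. With TFC-like cells that held a UMI of an immune marker left out, the differences were -2.42 for Cd74, -1.96 for H2-Aa, -1.48 for H2-Ab1 and -2.55 for H2-Eb1.

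The peptide exchange genes and the coactivator behaved otherwise. H2-DMa was at 0.140 to 0.278 UMIs per 10000 in the TFCO samples and at 0.143 and 0.326 in tissue, and H2-DMb1 was at 0.101 to 0.260 against 0.176 and 0.0213. The groups overlapped for both (exact p = 0.667 and 0.286). With the required mean lowered to 0.1 the limma difference was -0.03 for H2-DMa (95% interval -0.29 to 0.24) and 0.09 for H2-DMb1 (-0.14 to 0.32). Ciita stood at 0.0179 to 0.0463 in TFCOs, from 38 UMIs in 1395 cells, and at 0.0554 and 0 in tissue, from 1 UMI in 103 cells. Of the UMIs of the 7 genes in TFCO samples, H2-DMa made up 29.5% to 51.9% and H2-DMb1 31.4% to 40.6%, against 0.838% and 2.13% and 0.559% and 1.47% in TFC-like tissue cells. Without the 2 deepest wells of tissue sample 2, its shares were 1.83% for H2-DMa and 0.610% for H2-DMb1, from 3 and 1 UMIs. The share of cells with an H2-DMb1 UMI was higher in TFCOs at full depth (8.75% to 16.0% against 4.26% and 5.36%, exact p = 0.0476), and this was not so at equal depth (0.976% to 2.43% against 1.76% and 0.213%, exact p = 0.333).

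**Figure D4:**
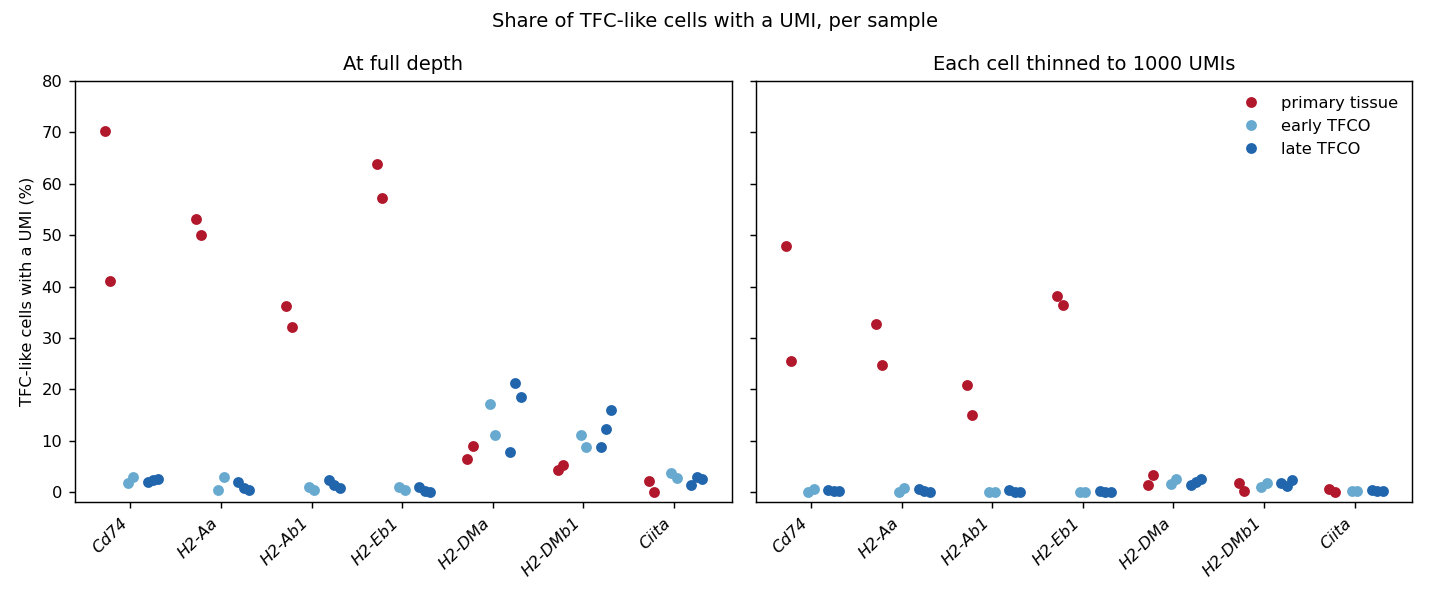
Share of TFC-like cells with a UMI of each gene, with a point per sample, at full depth (left) and after thinning each cell to 1000 UMIs (right). Cd74, H2-Aa, H2-Ab1 and H2-Eb1 lie at 32.1% to 70.2% in tissue and at or below 3.04% in TFCOs at full depth, while the TFCO points of H2-DMb1 lie above both tissue points on the left (8.75% to 16.0% against 4.26% and 5.36%) and around them on the right.

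Limma could not decide whether late and early passage differ in the 4 genes tested. These reached the required mean only through the tissue level, and their late and early levels lay far below the pseudocount of 1. H2-Ab1, with mean levels of 0.0199 in late and 0.00411 in early samples, differed by only 0.02 on the log2(mean + 1) scale. The missing calls and the intervals are therefore given without weight. None of the 4 passed, where 0.0231% of all genes were called (1 of 4322). Of the 4, 0 had an unadjusted p under 0.05, as 20.3% of all genes tested had. The difference of late minus early was -0.02 for Cd74 (95% interval -0.40 to 0.37), -0.03 for H2-Aa (-0.33 to 0.27), 0.02 for H2-Ab1 (-0.24 to 0.28) and -0.00032 for H2-Eb1 (-0.22 to 0.22). Of the levels only those of H2-Ab1 did not overlap, at 0.00739 or more in late and 0.00599 or less in early samples, a pattern that 17.9% of all genes tested had in this direction and 24.5% in the other. The exact test gave p = 0.4 for it and 0.5 to 1 for the other genes, with 0.1 the smallest value that 3 against 2 samples allow.

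Among the other genes of the pathway, 45 of the listed names were found in the table, of which 15 could be tested between tissue classes and 8 between TFCO and tissue follicular cells. The other class II genes, H2-Oa, H2-Ob, H2-DMb2 and H2-Eb2, were too low to test, at 1.35 UMIs per 10000 or less in immune-like cells. Of the 4 tested proteases that process antigen, 3 were higher and 1 was lower in immune-like than in endothelial-like cells, where 5.22% and 7.68% of all genes were called. Ctss, which cleaves the invariant chain in antigen-presenting cells, stood at 28.4 against 0.385 UMIs per 10000 (log2 difference 4.41, adjusted p = 3.84e-07), Lgmn differed by 1.96 (adjusted p = 0.000146) and Ctsb by 1.77 (adjusted p = 0.000363). Ctsl went the other way, at 0.337 against 2.81 (-1.51, adjusted p = 0.00349). Ctss and Lgmn reached the required mean only through their immune-like level, so their calls and the count of 3 are given without weight. Ctss counts followed the barcode of the well in TFCOs (correlation of 0.177 between cells of different plates with the same barcode), where a value over 0.05 was taken as following it. Of the 19498 genes with such a value, 4194 were past this limit. H2-Aa was past it as well, at 0.0708, and Cd74, H2-DMa, H2-DMb1 and Ciita were at 0.0193 or less. No value could be computed for H2-Ab1 and H2-Eb1.

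Against TFC-like tissue cells, 5 of the 15 tested pathway genes were higher in immune-like cells and 1 was lower, where 6.59% and 2.98% of all genes were called. Ctss (4.13, adjusted p = 1.10e-06), Lgmn (1.91, adjusted p = 0.000256), the interferon gamma receptor chain Ifngr1 (1.53, adjusted p = 0.00388) and the immunoproteasome subunit Psmb8 (1.49, adjusted p = 0.00505) were 4 of the 5, the other being Ifngr2 (1.29, adjusted p = 0.0181), and Ctsl was lower (-2.21, adjusted p = 0.00022). Ctss, Lgmn and Ifngr2 reached the required mean only through their immune-like level. Their calls and the count of 5 are therefore given without weight. In endothelial-like against TFC-like cells 4 of the 15 were higher and 1 was lower, where 9.45% and 2.55% of all genes were called. Gbp7, an interferon-inducible GTPase (1.499, adjusted p = 0.00271), the transcription factor Irf1 (1.39, adjusted p = 0.0413), Psmb8 (1.17, adjusted p = 0.0185) and Ifngr1 (1.13, adjusted p = 0.0212) were higher in endothelial-like cells, and Ctsb was lower (-1.09, adjusted p = 0.0158). Gbp7 was also lower in immune-like than in endothelial-like cells (-1.03, adjusted p = 0.0262). It reached the required mean only through its endothelial-like level, so its calls and its part in the counts are given without weight. Of the transcription genes, Nfyc and Creb1 could be tested between tissue classes and neither passed, and Rfx5, a subunit of the RFX complex, stood at 0.188 and 0.452 UMIs per 10000 in immune-like and 0 to 0.251 in TFC-like cells of all samples.

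In TFCOs 4 of the 8 tested pathway genes were higher than in tissue follicular cells and 0 were lower, where 23.1% of all genes tested were called higher. They were the lysosomal proteases Ctsb (27.3 against 7.65 UMIs per 10000, log2 difference 1.66, adjusted p = 0.011), Ctsl (18.1 against 5.20, 1.54, adjusted p = 0.0113) and Lgmn (0.60, adjusted p = 0.02), and the kinase Jak1 (0.70, adjusted p = 0.0251). Lgmn reached the required mean only through its TFCO level, so its call and its part in the count of 4 are given without weight. No gene of the interferon response list was high enough to test there. None of the 8 passed between late and early passage.

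Genes whose levels were most like the sum of the 7 over the 17 class-by-sample means were Ftl1, a ferritin chain (Pearson r = 0.969), Apoe (0.946), Ccnd3 (0.932), C1qb (0.909) and Ctss (0.902), among 4746 genes compared. The points share libraries, and the values mostly set immune-like cells against the rest: Apoe stood at 52.0 and 51.3 UMIs per 10000 in immune-like cells and at 5.36 or less elsewhere.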

How the data were processed

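The deposited table of the authors holds natural log values, ln(1 + UMIs of a gene per 10000 UMIs in that cell). Their processing notes name Trim Galore 0.4.3, STAR 2.5.3a, Seurat and the build GRCm38 (mm10); the annotation, the counter and the cell filter are not given in the sources used here. The log was undone and each cell was divided by its smallest non-zero value, which gave whole numbers for 100% of values within 0.01. These were taken as UMIs, assuming that the smallest value of a cell is 1 UMI. The deposited list of barcodes served only to describe the plates.

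The 7 genes, the pathway lists and the tests were chosen with earlier results of these data known. Cells of at least 1000 UMIs were clustered with scanpy 1.11.5 (2000 variable genes, 30 components, 15 neighbors, Leiden resolution 1), tissue and TFCOs apart, without class II genes and without genes that followed the well barcode. A cluster was named from the fixed list with the highest mean score, with 3 or more markers in at least 10% of its cells and, in tissue, a marker among its 10 leading genes. No other list could have more markers among these 10. A cluster without such a marker and with a depth under 0.333 of the sample median stayed unnamed. In all, 127 tissue and 48 TFCO cells stayed unnamed, and 23 and 14 cells with higher C cell, parathyroid or erythroid than TFC scores were set aside. Doublets were not called. Cells had been sorted singly, and whether some wells held RNA of several cells was not tested.

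Means over cells, of genes whose mean over the classes (or over tissue, late and early) was at least 0.5 UMIs per 10000, were tested with limma 3.58.1 (R 4.3.3, trended empirical Bayes, pseudocount 1, Benjamini-Hochberg threshold of 0.05), a script tested on simulated data. Estimated weights were 0.467 for tissue and 1.36 for TFCO samples. Classes of the same tissue sample share a plate, hence the replicate block. The block removes the shift between the 2 tissue samples. The p-values between tissue classes thus measure how far class differences disagree between these samples. The labels pair no tissue sample with a TFCO sample, and they do not say whether samples came from separate animals or cultures. The p-values of TFCO against tissue and of late against early measure the spread between samples. The study's series text gives 2 biological replicates per description, against 3 late samples in the labels. All 7 genes were named in each comparison, and of the pathway genes up to 4 per direction. Alternatives were another pseudocount, filter, cell minimum, sum, centring, resolution, weighting and block, and leaving out each sample.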

Additional observations from a re-analysis of the deposited data

How the results depend on the processing

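Of the counts of genes past the threshold in each comparison, 81 of 82 alternative values were within 1.5 times the reported count. The exception was the comparison of endothelial-like with TFC-like cells, where 0 of the genes passed without a required mean (Cd74 -1.71, adjusted p = 0.0593), a setting in which more genes were tested. Among the values of single genes, 515 were taken as unchanged, 4 lost a call, 16 moved by more than the spread and 17 changed sign. None of the last was past a threshold. Unchanged means the same direction and call where a p under 0.05 was possible. Elsewhere it means a value within the spread, and a change of sign of an uncalled value was not counted there. H2-DMb1 in endothelial-like minus TFC-like cells was -0.0787 with a minimum of 2000 UMIs, -0.0499 with UMIs summed over cells and -0.137 when centred. H2-Eb1 in late minus early TFCOs was 0.000496 with a minimum of 500 UMIs, 0.000668 when summed (with and without tissue cells over 100000 UMIs), 0.0164 when centred, 2.02e-05 at resolutions 0.5 and 2 and 0.000139 with every TFCO cell. Leaving out each sample moved late minus early between -0.00984 and 0.00529 for H2-Eb1, between -0.0643 and 0.0277 for Cd74 and between -0.0862 and 0.0274 for H2-Aa. In these the cause was not tested. Shares of cells with a UMI, TFCO minus tissue, turned to -0.329 percentage points for H2-DMa and -0.0139 for Ciita after thinning. That of H2-DMb1 lost its call after thinning (0.634), with at least 2 UMIs (2.22) and with a minimum of 500 UMIs (6.37).

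The fit without the replicate block for the tissue sample left all differences as they were and changed no call (Cd74 in immune-like minus endothelial-like cells 6.37, adjusted p = 2.99e-07, in endothelial-like minus TFC-like cells -1.71, adjusted p = 0.00907). Tissue and TFCO samples could not be paired. Leaving out a tissue sample left no test between tissue classes. At resolution 0.5 no cluster was endothelial-like. With 2 tissue samples and 57 immune-like cells, low genes such as Ciita rest on few UMIs.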

Other observations

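The 127 tissue cells of clusters that could not be named held Cd74 and the chain genes at levels near those of endothelial-like cells. Their Cd74 was below that of TFC-like tissue cells (9.33 and 3.15 UMIs per 10000). H2-Eb1 stood at 4.47 and 2.66 UMIs per 10000 in tissue samples 1 and 2, H2-Aa at 2.82 and 2.43, H2-Ab1 at 1.51 and 1.18 and Cd74 at 1.01 and 0.699, with Cd74 at 10.1% of the UMIs of the 7 genes in each sample. Wells of the TFCO plates with under 1000 UMIs held 0 Cd74, 0 H2-Ab1 and 0 H2-Eb1 UMIs and 1 of H2-Aa over the 5 samples, whereas those of the tissue plates held 29 and 13 Cd74 UMIs.

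H2-Oa and H2-Ob encode H2-O, which inhibits H2-M and is known from B cells and dendritic cells. H2-Oa stood at 0.716 and 0.369 UMIs per 10000 in immune-like cells of samples 1 and 2 and at 0 in endothelial-like, mural-like, stromal-like and erythroid-led cells of both samples. H2-Ob stood at 1.35 and 0.623 in immune-like cells and at 0 to 0.907 in those classes.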
